A study of Mus musculus with 460 samples.

Results

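Expression of 10 inflammatory genes was followed in single mouse cancer-associated fibroblasts: the chemokine genes Cxcl1, Cxcl2, Ccl2 and Ccl7, the alarmin gene Il33, the serum amyloid gene Saa3, the prostaglandin enzyme genes Ptgs2 and Ptges, and the hyaluronan synthase genes Has1 and Has2. They were taken by symbol, and they are 10 of the 48440 genes in the deposited count table. The series holds single-cell RNA-seq of 460 cells that the labels call CAFs, or tCAFs, of mice with lung adenocarcinoma, all of 1 strain. All cells belong to this 1 group, there is no normal fibroblast or other control in it, and no label names an animal, a culture, a sort or a batch. All cells were therefore taken as 1 sample and nothing was tested. Intervals are exact 95% ones, Clopper-Pearson for shares of cells and Poisson for summed counts, and cover the error of counting alone.

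In tumour stroma these genes form much of what is called the inflammatory fibroblast programme. Chemokines bind to matrix and draw leukocytes along a gradient, neutrophils in the case of Cxcl1 and Cxcl2 (through the receptor Cxcr2) and monocytes in the case of Ccl2 and Ccl7 (through Ccr2). Ptgs2 encodes cyclooxygenase 2, which makes the precursor that Ptges, the microsomal prostaglandin E synthase, turns into prostaglandin E2, and Has1 and Has2 encode membrane enzymes that spin hyaluronan into the matrix. Il33 is a nuclear cytokine released by damaged cells and sensed through Il1rl1, and Saa3 is an acute phase protein made locally in mouse tissues. Many of them are textbook targets of NF-kB, a transcription factor that binds kappa-B sites in promoters.

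Cells were also divided by whether they held more counts of Rgs5, a pericyte gene, than of Pdgfra, a fibroblast receptor gene. This gave 203 Rgs5-dominant cells (44.1%, interval 39.5 to 48.8) and 257 Pdgfra-dominant cells, with no tie. Rgs5-dominant cells held a median of 76944 counts and Pdgfra-dominant cells a median of 96654, so shares of cells with a count were also taken after thinning each cell to 56586 counts. Fibroblast genes were counted on both sides of the divide at unequal levels, with Col1a1 at 1740 CPM (a gene's counts scaled to 1000000 summed counts) in Rgs5-dominant and 2850 CPM in Pdgfra-dominant cells. Dcn and Lum stood at 230 and 8.32 CPM in Rgs5-dominant cells, against 1328 and 118 CPM in Pdgfra-dominant cells. The pericyte genes Abcc9, Notch3 and Kcnj8 stood at 1300.2, 1017 and 280.2 CPM in Rgs5-dominant cells, against 279, 168 and 71.2 CPM in Pdgfra-dominant cells. Genes of other lineages were counted as well: Ptprc, the leukocyte marker, in 11.3% of all cells, Pecam1 of endothelium in 16.3%, Epcam of epithelium in 5.43% and the surfactant gene Sftpc in 80.9%. A count in a small share of cells is therefore not read here as expression by fibroblasts.

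Cxcl1 and Cxcl2 lie as neighbours on chromosome 5 (GRCm38/mm10, GENCODE vM21), with starts 12630 bases apart, Cxcl1 at chr5:90891241-90893115 and Cxcl2 at chr5:90903871-90905938, both on the plus strand. The 250 bases before their RefSeq starts are shown because both hold the same kappa-B match and because Cxcl1 levels followed those of Nfkbia, the NF-kB inhibitor gene, whose window is the last of the 3. Sequences are from RefSeq (GRCm38.p6), read 5′ to 3′ on the gene's strand, and capitals mark matches to the kappa-B consensus on either strand. The RefSeq start is the base that follows each printed window. It lies a short way downstream of the GENCODE start given above for Cxcl1 and Cxcl2, and the offsets below are counted from it.
Cxcl1, chr5:90890995-90891244 (plus strand): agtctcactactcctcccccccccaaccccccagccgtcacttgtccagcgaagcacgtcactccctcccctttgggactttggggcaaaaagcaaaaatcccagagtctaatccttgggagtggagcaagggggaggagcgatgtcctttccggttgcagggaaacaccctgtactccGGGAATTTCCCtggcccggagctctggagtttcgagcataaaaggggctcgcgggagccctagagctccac
Cxcl2, chr5:90903649-90903898 (plus strand): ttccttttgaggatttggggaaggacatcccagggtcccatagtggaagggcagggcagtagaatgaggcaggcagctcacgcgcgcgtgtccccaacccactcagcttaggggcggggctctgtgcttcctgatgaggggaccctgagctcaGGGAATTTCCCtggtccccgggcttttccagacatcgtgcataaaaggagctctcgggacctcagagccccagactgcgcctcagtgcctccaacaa
Nfkbia, chr12:55492648-55492897 (minus strand): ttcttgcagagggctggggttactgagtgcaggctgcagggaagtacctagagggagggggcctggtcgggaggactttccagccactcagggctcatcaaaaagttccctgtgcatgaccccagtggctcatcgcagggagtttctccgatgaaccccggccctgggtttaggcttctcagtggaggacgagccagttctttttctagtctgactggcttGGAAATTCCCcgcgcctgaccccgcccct
The match lies at -71 to -61 from the start in Cxcl1 and at -97 to -87 in Cxcl2, and in each case the match on one strand overlaps that on the other. The longest stretch that the Cxcl1 and Cxcl2 windows share is 14 bases and contains it. Nfkbia holds its match at -29 to -20. Gadd45b, another gene whose levels followed those of Cxcl1, had no kappa-B match in its promoter. The levels of Cxcl1 and Cxcl2, which share the match, had a Spearman correlation of 0.09 across cells. Among the 7 of the 10 genes with a promoter in the RefSeq table (250 bases before to 50 after the start), 2 held a kappa-B match, against 8.46% of all 32851 promoters there. The TATA letters (TATAAA) were found in Il33, against 13.6% of all promoters. The AP-1 motif (TGANTCA) was in none of the 7 windows, and 7.81% of all promoters hold it. These matches describe letters only.

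Detection ranged from nearly every cell to a handful. Ptges was counted in 96.1% of cells (93.9 to 97.7), Ptgs2 in 91.1% (88.1 to 93.5) and Cxcl1 in 68.7% (64.2 to 72.9). The hyaluronan synthases came next, with Has1 in 28.04% (24.0 to 32.4) and Has2 in 20.7% (17.04 to 24.6). Il33 was counted in 15.9% (12.7 to 19.5), Saa3 in 12.2% (9.33 to 15.5), Cxcl2 in 9.78% (7.23 to 12.9), Ccl2 in 7.17% (4.99 to 9.93) and Ccl7 in 1.74% (0.754 to 3.40). Neighbours in this order from Has1 down to Ccl2 have overlapping intervals. Of the 10 genes, 6 thus had a count in under 25% of cells. Comparisons over all genes use the 16518 genes counted in at least 5% of cells, which leaves out Ccl7. Of the 9 genes that enter, 5 were under 25%, as were 36.9% of all genes.

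Levels followed another order when divided by annotated exon length, with all exons of a gene merged. Per kilobase of exon, Ptgs2 stood at 86.3 CPM, Cxcl1 at 69.9 and Ptges at 50.4. The other 7 genes lay between 6.57 CPM per kilobase for Cxcl2 and 1.38 for Ccl7. The merged exons of Cxcl1 and Cxcl2 fill the whole gene, 1875 and 2068 bases, so their values per kilobase may be too low. Whether these barcode counts grow with gene length was not tested. Without the length, Ptgs2 (chr1:150100031-150108227) was at 395 CPM over all cells, Ptges (chr2:30889471-30929863) at 198 CPM and Cxcl1 at 131 CPM, with intervals of 389 to 401, 194 to 203 and 128 to 135 CPM. Has2 (chr15:56665627-56694539) was at 22.04 CPM, Has1 (chr17:17843323-17855205) at 15.4, Cxcl2 at 13.6, Il33 (chr19:29925114-29960718) at 12.8 and Saa3 (chr7:46711998-46715700) at 9.41 CPM. Ccl2 (chr11:82035571-82037453) and Ccl7 (chr11:82045712-82047525), whose starts are 10141 bases apart, were at 4.65 and 1.10 CPM. Some reads cannot be assigned with certainty, since 5.84% of the 50-base stretches of Cxcl2 transcripts also occur in Cxcl3, 4.15% of those of Saa3 occur in many genes, and 2.10% of those of Has2 occur in the antisense gene Has2os. Has2os itself had 90 counts, against 939 for Has2.

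Most of these genes drew their counts from very few cells. The 3 highest cells were enough for 50% of all Cxcl2 counts, likewise for Ccl2 and for Saa3, while Ccl7 needed 2 cells, Il33 4, Has1 8 and Has2 9. Ptgs2 needed 16 cells, Cxcl1 27 and Ptges 86. Of the 10 genes, 8 reached that mark within 5% of cells. Without Ccl7 these were 7 of the 9 that enter, beside 33.6% of all genes, and Cxcl1 missed it with 5.87% of cells. The median over all 10 genes, with Ccl7, was 1.30% of cells. Without Ccl7 the middle gene was Has1, at 1.74% of cells, beside a median of 8.70% over all genes. The highest cell alone gave 32.6% of Cxcl2 counts (189 counts), 29.8% of Ccl7 (14), 28.7% of Saa3 (115), 25.3% of Ccl2 (50) and 22.9% of Il33 (125). It gave 12.0% of Has1, 10.4% of Has2, 4.79% of Ptgs2, 3.96% of Cxcl1 and 1.41% of Ptges. A gene with few counts reaches such shares more easily than an abundant one.

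**Figure D1:**
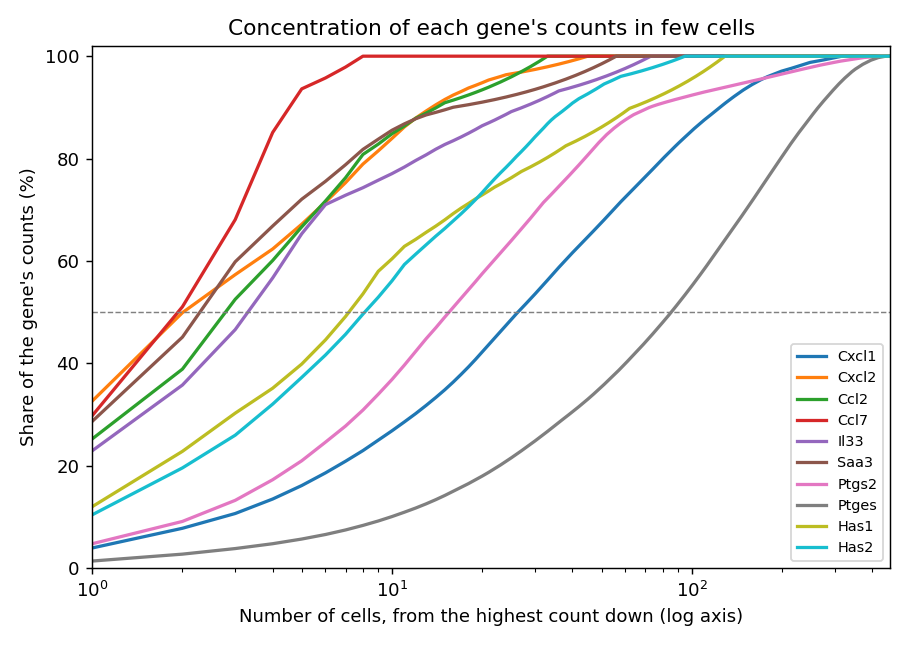
Share of each gene's counts (percent, y axis) held by its highest cells, against the number of those cells (log x axis), for all 460 cells. The curve of Ptges climbs slowest and reaches the dashed 50% line at 86 cells, those of Cxcl2, Ccl2, Saa3 and Ccl7 by the third cell at the latest.

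Ptgs2 combined wide detection with a steep upper end. Its level per cell was 0 CPM at the lowest, 48.9 at the median and 7002 at the highest, 123 cells had at least 100 CPM and 42 cells at least 1000 CPM. The top 10% of cells held 81.3% of its counts. Ptges, the next enzyme of the same route, had a higher median of 151 CPM and a maximum of 1388 CPM, with 33.5% of its counts in its top 10% of cells. The Fano factor of thinned counts (variance over mean) exceeded the trend over all genes by 1.38 on the log10 scale for Ptgs2, a larger excess than that of 99.8% of genes, and by 0.245 for Ptges, larger than that of 85.5%. Cxcl1 had a lower median than either, at 0 CPM at the lowest, 21.1 at the median and 2825 at the highest. Its excess of 0.904 lay between theirs. Its top 10% of cells held 65.3% of its counts.

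Many cells positive for a rarer gene held 1 count of it, namely 67 of the 129 cells with Has1, 40 of the 56 with Saa3, 37 of the 73 with Il33 and 18 of the 33 with Ccl2. The same held for 37 of the 95 cells with Has2, 21 of the 45 with Cxcl2 and 3 of the 8 with Ccl7. At least 10 counts were held by 26 of the 95 Has2-positive cells and by 11 of the 129 Has1-positive cells. The corresponding numbers were 12 of 45 cells for Cxcl2, 8 of 56 for Saa3, 7 of 73 for Il33, 6 of 33 for Ccl2 and 2 of 8 for Ccl7.

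The Rgs5-dominant cells held less of both prostaglandin enzymes. Ptgs2 was at 194 CPM in Rgs5-dominant cells (0 at the lowest, 39.4 at the median, 7002 at the highest cell) and at 528 CPM in Pdgfra-dominant cells (0 at the lowest, 56.4 at the median, 6721 at the highest). The ratio was 0.368 (0.354 to 0.382), or -1.44 on the log2 scale. The ranges overlap throughout, and detection hardly differed, with a count in 90.6% of Rgs5-dominant and 91.4% of Pdgfra-dominant cells (84.2% of Rgs5-dominant and 85.6% of Pdgfra-dominant cells after thinning). At the upper end, 7 of the 203 Rgs5-dominant and 35 of the 257 Pdgfra-dominant cells had at least 1000 CPM. At least 100 CPM was reached by 36 Rgs5-dominant and 87 Pdgfra-dominant cells. Without scaling for the unequal depth, 10.8% of Rgs5-dominant and 33.9% of Pdgfra-dominant cells held at least 10 counts. Ptges was at 123 CPM in Rgs5-dominant cells, with 0, 95.3 and 559 CPM at the lowest, median and highest cell. It was at 248 CPM in Pdgfra-dominant cells, with 0, 199.6 and 1388 CPM, a ratio of 0.498 (0.474 to 0.523). Both enzymes were lower at the median as well. Without the 5 highest cells of each gene the ratio was 0.526 for Ptges and 0.266 for Ptgs2.

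Both hyaluronan synthases were lower in the Rgs5-dominant cells too. Has2 was at 7.14 CPM in Rgs5-dominant and 31.9 CPM in Pdgfra-dominant cells, a ratio of 0.224 (0.183 to 0.271), and it was counted in 14.3% of Rgs5-dominant (9.78 to 19.9) and 25.7% of Pdgfra-dominant cells (20.4 to 31.5). Has1 was at 8.43 CPM in Rgs5-dominant and 20.04 CPM in Pdgfra-dominant cells, a ratio of 0.421 (0.347 to 0.508), and was counted in 21.7% of Rgs5-dominant (16.2 to 27.98) and 33.1% of Pdgfra-dominant cells (27.4 to 39.2). After thinning, Has2 was counted in 11.7% of Rgs5-dominant and 21.4% of Pdgfra-dominant cells, and Has1 in 17.0% of Rgs5-dominant and 24.7% of Pdgfra-dominant cells. Without the 5 highest cells of each gene the ratios were 0.383 for Has2 and 0.592 for Has1. The median cell of either set had no count of Has1 or Has2.

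Cxcl1 did not follow them. It was at 131 CPM in Rgs5-dominant cells (0 at the lowest, 20.3 at the median, 2825 at the highest) and at 131 CPM in Pdgfra-dominant cells (0 at the lowest, 21.4 at the median, 1882 at the highest), a ratio of 0.998 (0.945 to 1.05). It was counted in 66.0% of Rgs5-dominant cells and in 70.8% of Pdgfra-dominant cells. Without its highest cell the Cxcl1 ratio was 0.904, without its 5 highest 0.810. Cxcl2 was at 24.3 CPM in Rgs5-dominant and 6.51 CPM in Pdgfra-dominant cells, a ratio of 3.73 (3.11 to 4.49). It was counted in 10.8% of Rgs5-dominant (6.92 to 16.0) and 8.95% of Pdgfra-dominant cells (5.76 to 13.1), and without its single highest cell the ratio was 2.03, without its 5 highest 1.503.

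The CC chemokines and Saa3 were lower in Rgs5-dominant cells by summed counts, on a very small number of cells. Ccl2 was at 1.12 CPM in Rgs5-dominant and 6.98 CPM in Pdgfra-dominant cells (19 counts in Rgs5-dominant, 179 in Pdgfra-dominant), a ratio of 0.161 (0.0945 to 0.258), and its 5 highest cells were all Pdgfra-dominant. Ccl7 had 1 count in Rgs5-dominant and 46 counts in Pdgfra-dominant cells, a ratio of 0.0329 (0.000815 to 0.193). Saa3 was at 3.60 CPM in Rgs5-dominant and 13.3 CPM in Pdgfra-dominant cells, a ratio of 0.271 (0.203 to 0.357), but without its 5 highest cells, all Pdgfra-dominant, the ratio was 1.78. For Ccl2 and Ccl7 the ratio without those cells was 0.601 and 0.744. Il33 was at 17.9 CPM in Rgs5-dominant and 9.43 CPM in Pdgfra-dominant cells, a ratio of 1.89 (1.59 to 2.25) that came to 1.13 without its highest cell. It was counted in 15.8% of Rgs5-dominant and 16.0% of Pdgfra-dominant cells.

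Of the 9 genes that enter, 6 (Ptgs2, Ptges, Has1, Has2, Ccl2 and Saa3) were at least 2-fold lower in Rgs5-dominant cells, as were 6.79% of all 16518 genes. One, Cxcl2, was at least 2-fold higher, as were 5.58% of all genes. The median log2 ratio was -1.25 over the 9 genes and 0.02 over all genes. When each gene was taken without its 5 highest cells, 2 of the 9 were at least 2-fold lower, Ptgs2 (ratio 0.266) and Has2. The share over all genes was not computed in this way, so this number has no background.

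**Figure D2:**
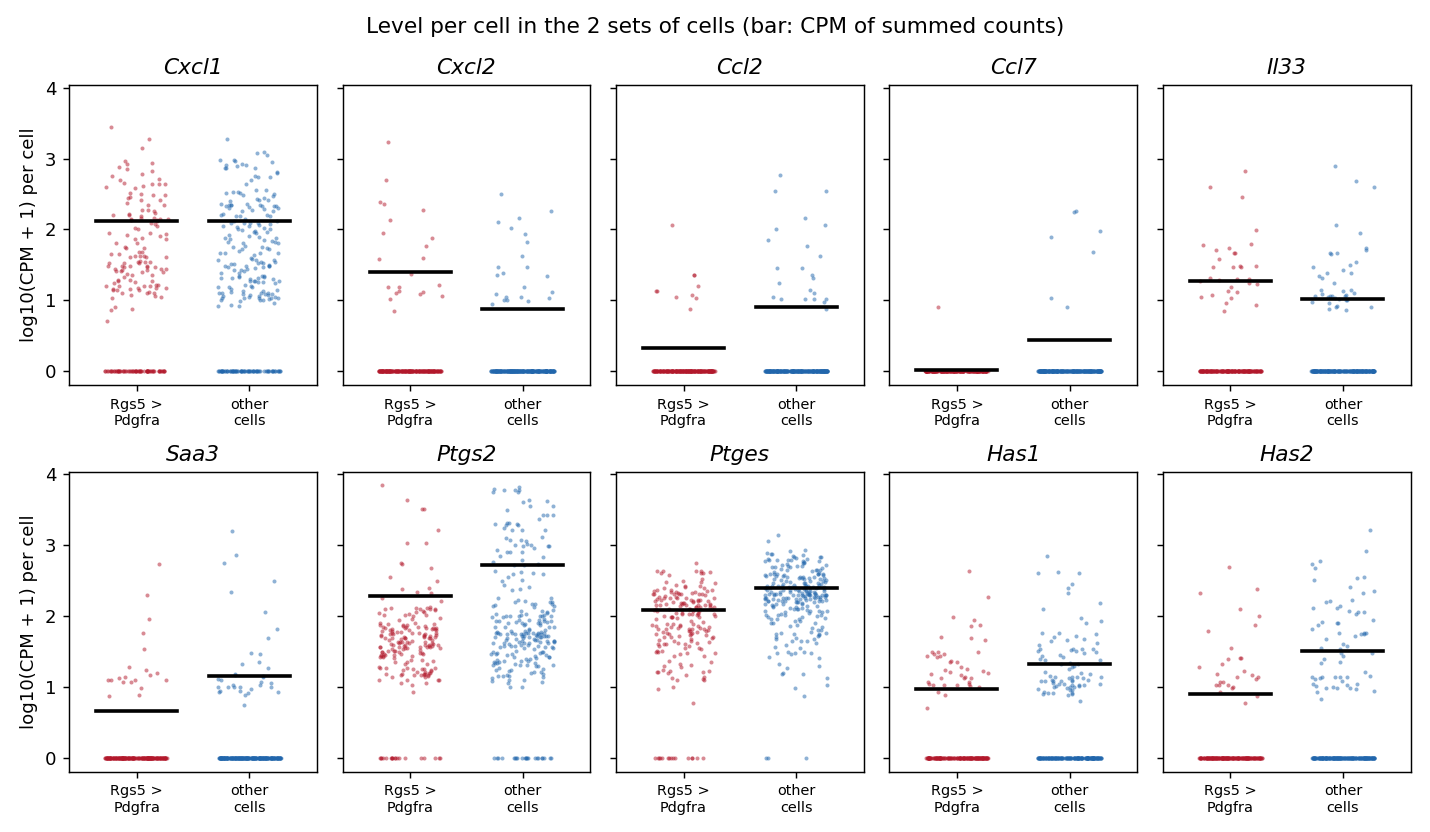
Level of each gene in each cell, log10(CPM + 1), in the 203 Rgs5-dominant cells (red, left) and the 257 other, Pdgfra-dominant cells (blue, right), with a bar at the CPM of summed counts. The clouds of Ptges and Ptgs2 lie lower in the Rgs5-dominant cells at the median (95.3 against 199.6 CPM and 39.4 against 56.4 CPM), and the bars of Cxcl2, Ccl2, Ccl7, Il33 and Saa3 rest on a few cells far above a row at 0.

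The cells richest in Cxcl2 also carried macrophage transcripts. Its 4 highest cells held 189, 100, 43 and 29 counts of Cxcl2, and the 11 macrophage or monocyte genes summed to 9896, 5344, 5240 and 9429 CPM in them, with 110, 110, 8 and 49 counts of Ptprc. The median of that sum was 85.1 CPM in Rgs5-dominant cells (range 0 to 9896) and 75.9 CPM in Pdgfra-dominant cells (range 0 to 6807), and all 11 genes but C1qa were counted in the Rgs5-dominant cells and all 11 in the Pdgfra-dominant cells. In all, 13 cells reached at least 1000 CPM of these genes, 9 of them Rgs5-dominant, and they held 400 of the 579 Cxcl2 counts (69.1%). Cxcl2 was at 292 CPM in the 13 and 4.34 CPM in the other cells. No Ccl2 or Ccl7 count lay in the 13 cells. Without the 145 cells that had a count of at least 2 of these genes other than Lyz2, a choice made after seeing the data, Cxcl2 was at 0.742 CPM in Rgs5-dominant and 3.76 CPM in Pdgfra-dominant cells (8 counts in Rgs5-dominant, 63 in Pdgfra-dominant). Its log2 ratio was then -2.34, opposite in sign to the 1.90 of all cells. The part of RNA from macrophages in the Cxcl2 counts was not tested further.

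A large part of the Il33 counts lay in cells with epithelial transcripts. There were 11 cells with at least 5000 CPM of the 10 epithelial or alveolar type II genes, 6 of them Rgs5-dominant, and they held 45.5% of the Il33 counts, at 227 CPM against 7.15 CPM in the other cells. Of its 5 highest cells, 3 had epithelial sums of 12065, 15415 and 24745 CPM, and another had 9538 CPM of mesothelial genes. The remaining one, with 70 Il33 counts, was also the cell with the most Ptgs2 counts (806) and had an epithelial sum of 550.3 CPM. The epithelial sum had a median of 728 CPM in Rgs5-dominant cells (range 0 to 21485) and 611 CPM in Pdgfra-dominant cells (range 0 to 24745), and all 10 genes were counted in both. The highest cells of Ptgs2, Ccl2 and Saa3 were not of this kind. Among the 5 highest cells of each, macrophage sums were at most 248.8 CPM and epithelial sums at most 3839 CPM, and Ptprc was counted in 1 of them, with 1 count. The same 13 macrophage-rich and 11 epithelial-rich cells held 0.404% and 0.380% of Ptgs2 counts.

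**Figure D3:**
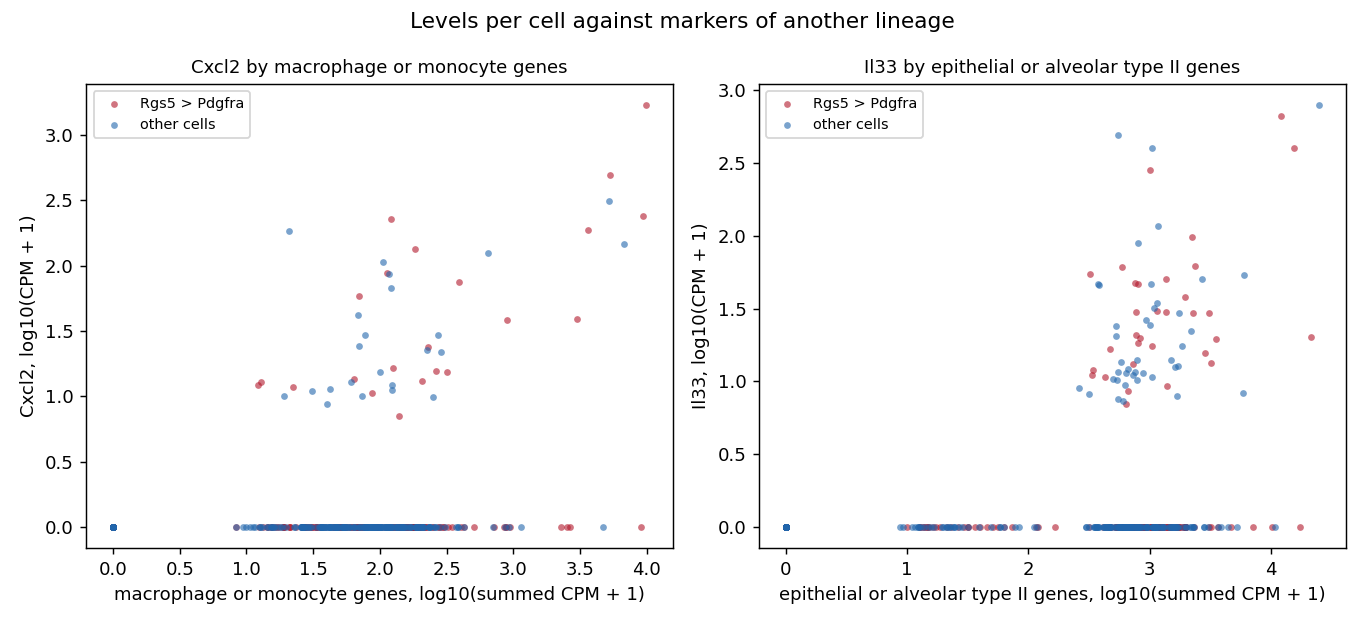
Cxcl2 level per cell, log10(CPM + 1), against the summed level of the macrophage or monocyte genes (left), and Il33 level against that of the epithelial or alveolar type II genes (right), on log10 axes, for Rgs5-dominant (red) and other (blue) cells. The highest Cxcl2 points lie at the right end of the macrophage axis, and 3 of the highest Il33 points at the right end of the epithelial axis.

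Il33 had no count in 2 runs of columns of the table. In columns 207 to 236 and 301 to 397 of the table most neighbouring columns have under 30 CPM of Sftpc, a split known from earlier results of these data, and the labels give no reason for it. Il33 had no count in the 127 cells of these runs, where the exact intervals reach up to 2.86% of cells and 0.361 CPM. The limit of 3 counts gives 2.36% and 0.294 CPM. Il33 was counted in 21.9% (17.6 to 26.8) of the 333 cells outside, at 16.8 CPM. By stretch of columns, the shares were 22.3%, 0%, 15.6%, 0% and 27.0%. Cells in the runs held fewer counts, a median of 76488 against 92997 outside, but after thinning Il33 was still at 0% in the runs and at 18.2% outside. Epithelial genes moved with it, with a median sum of 0 CPM in the runs (range 0 to 5233) against 803 CPM outside (range 0 to 24745), and all 10 genes counted in both. Endothelial sums reached at most 313 CPM in the runs and 4874 CPM outside, with Kdr and Cldn5 at 0 in the runs. Cd74, of antigen presentation, was counted in 9.45% of cells in the runs and 79.3% outside. Their part in the Il33 counts was not tested.

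Ptgs2 was also lower in the runs, less steeply. It was counted in 79.5% (71.5 to 86.2) of cells in the runs and 95.5% (92.7 to 97.5) outside, or 68.9% in the runs and 90.6% outside after thinning. Its level was 237 CPM in the runs and 445 CPM outside, a ratio of 0.534 (0.511 to 0.557). By stretch of columns its shares were 95.6%, 83.3%, 95.3%, 78.4% and 95.2%, the second and the fourth being the runs. Ptges (ratio 0.961), Has1 (1.05) and Has2 (1.04) differed little between the runs and the rest, and Cxcl1 had a ratio of 1.27. Il33 was the 1 gene of the 9 at least 2-fold lower in the runs, as were 5.79% of all genes. Cxcl2, Ccl2 and Saa3 were at least 2-fold higher, as were 1.85% of all genes, but without the single highest cell of each the ratios were 0.975, 0.917 and 0.693.

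The lower levels of both prostaglandin enzymes and both hyaluronan synthases in Rgs5-dominant cells were present on both sides of this split. The Cxcl1 ratio was 1.44 in the runs and 0.827 outside. For Ptgs2 the ratio was 0.439 in the runs and 0.369 outside, for Ptges 0.413 in the runs and 0.531 outside, for Has1 0.331 in the runs and 0.455 outside, and for Has2 0.334 in the runs and 0.177 outside. Inside the runs, 6 of the 9 genes were at least 2-fold lower in Rgs5-dominant cells (12.3% of all genes) and 1, Cxcl2, higher (9.9% of all genes). Il33 had no count there and could not be compared. These shares of all genes count any gene without a count in either set as both lower and higher, so they are upper limits. Outside, 5 were lower (7.4% of all genes) and 2 higher, Cxcl2 and Il33 (6.42% of all genes), with Ptges short of 2-fold. The Il33 ratio of 2.09 outside came to 1.24 without its highest cell, and the Cxcl2 ratio of 2.42 to 0.867 without its 5 highest. In the runs the Cxcl2 ratio of 5.88 came to 1.18 without its highest cell. Without their 5 highest cells, the ratios of Ccl2 and Saa3 were 1.09 and 1.35 in the runs, and 0.597 and 1.93 outside.

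**Figure D4:**
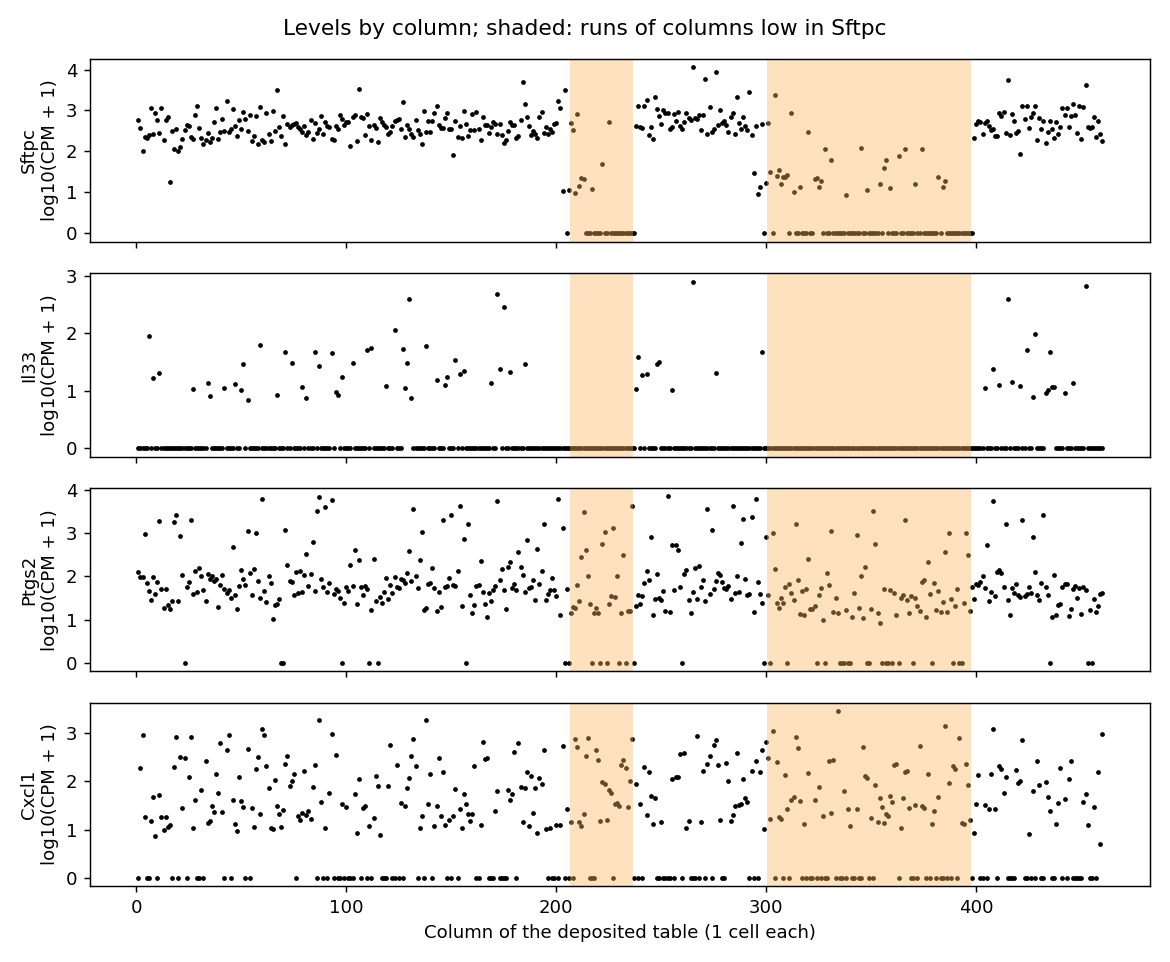
Levels of Sftpc, Il33, Ptgs2 and Cxcl1, log10(CPM + 1), in each cell by its column in the deposited table, with the runs low in Sftpc shaded. Il33 is at 0 in all 127 shaded cells, Ptgs2 is counted in 79.5% of them and Cxcl1 in 70.1%.

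Joint expression was weak over the 45 pairs of the 10 genes. Spearman correlations across the 460 cells, on log counts scaled to 10000 per cell, ran from -0.08 to 0.21 with a median of 0.05. They are descriptions over cells that differ in depth and in the Rgs5 to Pdgfra divide. Only Cxcl1 with Ptgs2 reached 0.2 (0.21), and 0.286% of all pairs of genes did. In Rgs5-dominant cells that pair stood at 0.12, in Pdgfra-dominant cells at 0.29. In the Pdgfra-dominant cells outside the runs low in Sftpc, 6 pairs reached 0.2, led by Cxcl1 with Ptges (0.32) and Cxcl1 with Ptgs2 (0.31). The share of all pairs of genes that reach 0.2 was not computed for these cells, so this number has no background. Ptgs2 and Ptges, which act in sequence, correlated at 0.13, at -0.10 in Rgs5-dominant and 0.16 in Pdgfra-dominant cells. The neighbours Cxcl1 and Cxcl2 correlated at 0.09, and both were counted in 36 cells where the product of their shares gives 30.9. Ccl2 and Ccl7 were counted together in 2 cells, with 0.574 from their shares.

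Some genes shared a number of their highest cells. Among the 7 genes counted in at least 10% of cells, 7 of 21 pairs shared at least 10 of their 46 highest cells, where 1.81% of all pairs of such genes did. The median was 6 shared cells over the 21 pairs, 5 over all pairs and 4.6 by the product of shares. Cxcl1 shared 15 cells with Has1, 14 with Ptgs2 and 11 with Ptges, and Ptgs2 shared 13 with Ptges and 12 with Has1. The other 2 pairs, Ptges with Has1 and with Saa3, shared 10 each. Has2 and Il33 were in none of these 7 pairs. Has1 and Has2 were counted together in 38 cells, with 26.6 from their shares, and shared 8 of their 46 highest cells. The levels of Ptges and Ptgs2 correlated with the total counts of the cell, at 0.46 and 0.39.

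**Figure D5:**
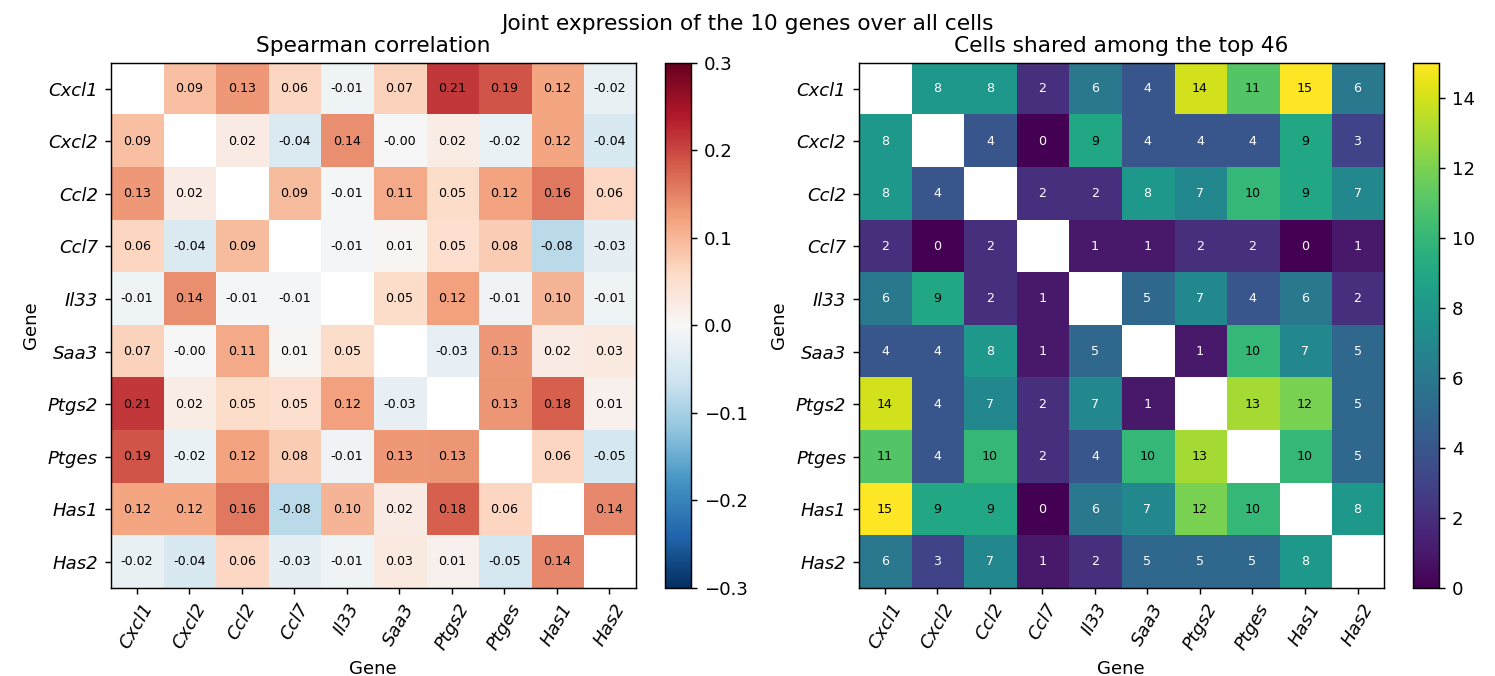
Spearman correlation (left) and number of cells shared among the 46 highest (right) for the 45 pairs of genes over all 460 cells. Cxcl1, Ptgs2, Ptges and Has1 hold the largest shared numbers, between 10 and 15, and no correlation passes 0.21.

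A cell held counts of 3 of the 10 genes at the median. At least 5 were counted in 93 cells, 20.2% (16.6 to 24.2), with 15.3% (10.6 to 21.0) among Rgs5-dominant and 24.1% (19.0 to 29.8) among Pdgfra-dominant cells. No cell held 9 or 10 of them, 2 cells held 8, both Pdgfra-dominant, and 1 cell held none. Leaving out Cxcl1, Ptgs2 and Ptges, 186 cells held none of the 7 rarer genes and 155 held 1. This number depends on depth, and it was 12.8% for at least 5 genes after thinning.

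At a correlation of 0.3 or more, the genes most like each member differed between them. For Cxcl1 they were Nfkbia (Spearman 0.49 over the 460 cells), Nfkbiz (0.45) and Gadd45b (0.45), with Nfkbia at 0.61 in Pdgfra-dominant cells. For Ptgs2 they were the immediate early genes Nr4a2 (0.41) and Csrnp1 (0.35) and the matrix gene Thbs1 (0.36). For Ptges they were Fmo2 (0.43), Pdgfra itself (0.42) and the cadherin gene Cdh11 (0.40), and the same correlations were 0.33, 0.32 and 0.20 within the Pdgfra-dominant cells. For Il33 they were Fam84b (0.32), Cd74 (0.32) and H2-Ab1 (0.30), of which the last 2 were 0.23 and 0.21 outside the runs low in Sftpc. Has2 had 1 gene at 0.3 or more, the fibrillar collagen-associated gene Col12a1 (0.30), and Saa3 and Has1 had none. Below that limit, the genes most like Has1 included Csrnp1 (0.28) and Thbs1 (0.27), which were also named for Ptgs2. The 3 genes counted in under 10% of cells were not searched.

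Related genes were read from 7 pathway lists, whose median log2 ratios between Rgs5-dominant and Pdgfra-dominant cells lay between -0.90 and -0.14. Over all genes, 6.79% were at least 2-fold lower and 5.58% at least 2-fold higher, and each count below stands beside these shares. Of the 17 NF-kB feedback and target genes, all of which entered, 2 were at least 2-fold lower and none higher, with a median log2 ratio of -0.77. Tnfaip3, which ends NF-kB signalling, was at 239 CPM in Rgs5-dominant and 742 CPM in Pdgfra-dominant cells, Nfkbia at 384 CPM in Rgs5-dominant and 688 CPM in Pdgfra-dominant cells, and Nfkbiz at 483 CPM in Rgs5-dominant and 904 CPM in Pdgfra-dominant cells. Of the other chemokine and cytokine ligands, 13 of 32 entered, 6 were at least 2-fold lower and 2 (Cxcl15 and Il18) higher, with a median of -0.90. Without the highest cell of each gene the ratio was 1.68 for Cxcl15 and 1.601 for Il18, short of 2-fold. The homeostatic chemokine genes Cxcl12 and Cxcl14 and the cytokine gene Lif stood at 58.0, 70.8 and 65.8 CPM in Rgs5-dominant cells, against 242, 308 and 333 CPM in Pdgfra-dominant cells. Il11 was lower on few counts, with 13 counts in Rgs5-dominant cells (0.767 CPM) and 100 in Pdgfra-dominant cells (3.90 CPM). Its ratio of 0.197 came to 0.445 without its highest cell and 0.611 without its 5 highest.

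Of 20 receptor genes for these ligands, 10 entered, 2 were at least 2-fold lower and none higher, and the median log2 ratio was -0.14. Tnfrsf1a was at 311 CPM in Rgs5-dominant and 254 CPM in Pdgfra-dominant cells, Il1r1 at 139 CPM in Rgs5-dominant and 219 CPM in Pdgfra-dominant cells, and Tnfrsf1b at 89.3 CPM in Rgs5-dominant and 114 CPM in Pdgfra-dominant cells. The Il33 receptor gene Il1rl1 was at 0.767 CPM in Rgs5-dominant and 18.8 CPM in Pdgfra-dominant cells, with 318 of its 495 counts in 1 cell. Its ratio of 0.0408 came to 0.119 without that cell and 0.566 without its 5 highest. Among serum amyloid and acute phase genes, 6 of 9 entered and 2 were at least 2-fold lower, with a median of -0.75. They were the serpin genes Serpina3n and Serpina3g, at 151 and 5.96 CPM in Rgs5-dominant cells, against 624 and 25.4 CPM in Pdgfra-dominant cells. The complement gene C3 was at 178 CPM in Rgs5-dominant and 311 CPM in Pdgfra-dominant cells, and Lcn2, whose protein binds siderophores, at 45.2 CPM in Rgs5-dominant and 32.2 CPM in Pdgfra-dominant cells. The Lcn2 ratio of 1.40 came to 0.801 without its highest cell.

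Of the other prostaglandin genes, 18 of the 21 measured entered, 2 were at least 2-fold lower and 1 (Tbxas1) higher, with a median log2 ratio of -0.15. The Tbxas1 ratio of 2.56 came to 1.46 without its highest cell. Ptgs1, the constitutive cyclooxygenase gene, was at 29.5 CPM in Rgs5-dominant and 109 CPM in Pdgfra-dominant cells, so both cyclooxygenases were lower there. The prostaglandin transporter gene Slco2a1 was at 145 CPM in Rgs5-dominant and 316 CPM in Pdgfra-dominant cells, and Ptges3, a cytosolic synthase, at 88.3 CPM in Rgs5-dominant and 96.0 CPM in Pdgfra-dominant cells. Among hyaluronan genes, 15 of 21 entered, 4 were at least 2-fold lower and 2 higher, with a median of -0.32. The hyaluronan-binding proteoglycan gene Vcan was at 433 CPM in Rgs5-dominant and 1505 CPM in Pdgfra-dominant cells. Itih5 and Itih2, of the family whose heavy chains bind hyaluronan, were higher, at 191 and 20.8 CPM in Rgs5-dominant cells, against 25.8 and 2.49 CPM in Pdgfra-dominant cells. The Itih2 ratio of 8.32 was 1.75 without its 5 highest cells. The receptor gene Cd44 was at 406 CPM in Rgs5-dominant and 507 CPM in Pdgfra-dominant cells, and the hyaluronidase gene Tmem2 at 232 CPM in Rgs5-dominant and 421 CPM in Pdgfra-dominant cells.

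Immediate early genes did not pass 2-fold in either direction in any of the 12, with a median log2 ratio of -0.31. Fos was at 2188 CPM in Rgs5-dominant and 2058 CPM in Pdgfra-dominant cells, Fosb at 1724 CPM in Rgs5-dominant and 1834 CPM in Pdgfra-dominant cells, and Nr4a1 at 1662 CPM in Rgs5-dominant and 2492 CPM in Pdgfra-dominant cells. This class also responds to tissue dissociation, and its part in the levels of Ptgs2 and Cxcl1 was not tested.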

How the data were processed

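Molecular barcode counts of 48440 genes in 460 single cells were used as deposited, as whole-number counts with no normalization, per the file headers. STAR and HTSeq, with the build mm10, are named in the submitters' processing notes with no version. The step from reads to barcode counts is not given in the sources used here, nor is strand. The strain is not reported here. Every cell is a sample of 1 group, and with no animal or culture named they count as 1 sample, so no test was run. Totals per cell ran from 25029 to 240496 counts (median 88701). No cell was left out, and doublets were kept without a caller. Where a symbol occurred more than once (119 symbols), it stands for the row with the highest sum.

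CPM of a set of cells is the summed count of a gene scaled to 1000000 summed counts. Called means a CPM ratio of at least 2-fold among the 16518 genes counted in at least 5% of cells. Intervals of ratios are exact conditional binomial ones, and the limit of a zero is 3 counts per set of cells. Thinning left out 46 cells (32 Rgs5-dominant, 14 Pdgfra-dominant) and kept 414. Fano trends are lowess fits (span 0.3). Columns low in Sftpc are those with over 50% of the 20 nearest columns under 30 CPM. The 10 genes, the pathway and marker lists, the split and the alternatives were chosen with earlier results of these data known. Named genes are the 10, for each counted in at least 10% of cells the 3 most correlated genes where rho is at least 0.3, and of each pathway list the 3 most abundant genes and any past 4-fold. Genes named as past 2-fold beside list counts, and markers, were named in addition. One list gene, Prxl2b, was not matched. The fold step recovered planted changes on simulated counts, and the concentration step returned the value of a planted case. The simulated counts were spread over cells more evenly than those of the rarer genes, so they do not cover genes this concentrated. Calculations ran in Python 3.11.15 with pandas 2.3.3, numpy 2.4.6, statsmodels 0.14.6 (lowess), scipy 1.17.1 (intervals) and matplotlib 3.10.9 (figures).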

Additional observations from a re-analysis of the deposited data

How the results depend on the processing

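No paired analysis was possible because there is 1 group and no replicate. The number of the 10 genes counted in under 25% of cells stayed between 5 and 7, and of those with 50% of counts in at most 5% of cells between 7 and 9, under thinning, depth, cell subsets and count limits. The matching shares over all genes were not computed under these settings. The share of cells with at least 5 of the genes was 20.2% and became 12.8% after thinning, 15.3% in Rgs5-dominant cells, 24.3% without the runs low in Sftpc, 9.45% within them, 5.22% with a count of at least 2 required and 15.9% without the cells with macrophage genes. Pairs at a correlation of at least 0.2 numbered 1, but 2 after thinning, 0 without the 5% deepest cells, 2 in Pdgfra-dominant cells, 3 without the runs and 2 within them, 4 by Pearson correlation and 0 at a limit of 0.3. The share over all pairs of genes was not computed under these alternatives. Genes at least 2-fold lower in Rgs5-dominant cells numbered 6, 5 to 7 under the other alternatives and 2 without each gene's 5 highest cells. Genes at least 2-fold higher numbered 1, 0 without those cells and without the cells with macrophage genes, and 2 with the sets at least 4-fold apart or without the runs. Except within and outside the runs, the shares of all genes past 2-fold were not computed under these alternatives. The log2 ratio of Saa3 turned from -1.88 to 0.83 without its 5 highest cells, and that of Cxcl2 from 1.90 to -2.34 without the cells with macrophage genes, the alternative chosen after seeing the data. That of Il33, 0.92 in all cells, was -0.28 without the 5% deepest cells and -0.23 without the cells with macrophage genes, and kept its sign in 7 of 10 alternatives. For Cxcl1 it was -0.003 in all cells, lay between -0.30 and 0.53 and kept its sign in 7 of 11 alternatives. The log2 ratios of Ptgs2 (-2.15 to -1.19), Ptges (-1.28 to -0.91), Has1 (-2.44 to -0.76), Has2 (-3.07 to -1.38) and Ccl2 (-4.56 to -0.74) kept their sign in 11 of 11 alternatives. Why these values moved was not tested. After thinning, the share of cells with a count was 63.04% for Cxcl1 and 85.02% for Ptgs2.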
